A study of Mus musculus with 35 samples.

Results

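The regions described here are the accessible chromatin sites of hepatocyte nuclei that lie nearest to genes of the conjugation, or phase II, enzymes: the UDP-glucuronosyltransferases (UGT), the sulfotransferases (SULT) and the glutathione S-transferases (GST). They were chosen by the gene name that the authors' annotation gives each region, as every region named for a Ugt1, Ugt2, Ugt3, Sult or Gst gene (GST classes A, K, M, O, P, S, T and Z) and at most 100 kb from its start site. The rule found 558 of 177904 regions, at 60 genes, and 557 of them had enough signal to be tested; no region with such a name lay farther than 100 kb, and no class S region was listed. The UGT1 family held 84 of the tested regions, UGT2 132, UGT3 21, SULT 130, GSTA 63, GSTM 54, GSTP 33, GSTT 23, GSTO 8, GSTK 6 and GSTZ 3.

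Nuclei were purified from mouse livers with an affinity tag (INTACT) and profiled by ATAC-seq, in which a transposase cuts and tags open DNA. All mice of all groups, controls included, carried CAG-Sun1/sfGFP and Albumin-Cre, so that the nuclear envelope tag is switched on in cells that have expressed albumin. Livers were taken at zeitgeber time 9 h, and cachexia meant a weight loss of more than 10%. There were 35 libraries in 9 groups, 1 animal each. BALB/c mice of the C26 cohort received PBS, or bore C26 tumors and were labelled pre-cachexia or cachexia (n = 4 in each group). C57BL/6N mice of the 8025 cohort bore 8025 tumors with cachexia (n = 4) or received PBS (n = 3). BALB/c mice of the NC26 cohort and C57BL/6N mice of the MC38 cohort bore tumors that leave body weight stable (n = 4 each) or received PBS (n = 4 each). C26, NC26 and MC38 are transplantable mouse colon carcinoma lines. No age was stated for the mice. Tumor line, strain and cohort go together, so a tumor was compared only with the PBS mice of its own cohort. The library names fall into 2 series, which were a term in the fit: all C26 libraries belong to the first and all 8025 libraries to the second, and NC26 and MC38 replicates 1 and 2 to the first and 3 and 4 to the second.

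UGT enzymes sit in the endoplasmic reticulum and attach glucuronic acid, taken from UDP-glucuronic acid, to bilirubin, bile acids, steroids and drugs. SULT enzymes transfer sulfonate from the donor PAPS to phenols, steroids and bile acids in the cytosol, and GST enzymes couple the tripeptide glutathione to electrophiles. In liver these reactions make hydrophobic compounds soluble enough for export into bile and blood, and nuclear receptors, NRF2 and liver-enriched factors such as C/EBP and HNF1 are known regulators of the genes. Most members lie in clusters of near-identical copies (Ugt1a on chromosome 1, Ugt2 with Sult1d1 and Sult1e1 on 5, Sult2a on 7, Gsta1, Gsta2 and Gsta4 on 9, Gstm on 3, Gstp on 19, Gstt on 10). Reads from such copies can be assigned to the wrong copy, and the nearest gene need not be the gene a region acts on.

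Libraries held 11.3 to 23.8 M tags, except replicate 1 of the NC26 tumor group with 3.47 M. The signal of a region is the number of tags in its 400 bp per 10 M tags of the library, a level scaled by the authors. Promoters of hepatocyte markers had a region for 7 of 8 genes, with mean levels of 111 to 164 tags in the 9 groups. Among them, the Serpina1a promoter averaged 0 to 0.72 tags in the BALB/c groups and 58.4 to 72.3 in the C57BL/6N groups. A promoter region was listed for 1 of 8 Kupffer cell and macrophage markers, 1 of 6 endothelial, 1 of 5 neutrophil, 0 of 6 lymphocyte, 4 of 6 stellate cell and 3 of 5 cholangiocyte markers. The summed level of the cholangiocyte promoters was 72.6 to 82.6 tags in C26 cachexia against 37.7 to 67.2 in C26 PBS, and 92.1 to 120.4 in 8025 cachexia against 65.9 to 93.1 in 8025 PBS. Most of this sum came from Sox9 (mean 61.3 against 35.9 tags in C26 and 92.3 against 63.3 in 8025); Epcam was also higher in cachexia, Spp1 lower (4.55 against 5.24 and 3.66 against 5.99), and Krt19 and Krt7 had no listed promoter region. The neutrophil promoter had 7.2 to 11.9 tags in C26 cachexia against 2.56 to 9.29 in C26 PBS, and 6.40 to 9.89 in 8025 cachexia against 1.41 to 5.14 in 8025 PBS. The macrophage promoter listed, Adgre1, had 2.59 to 8.91 tags in C26 cachexia against 1.27 to 4.35 in C26 PBS, and 3.39 to 8.73 in 8025 cachexia against 1.03 to 3.53 in 8025 PBS; of 20 regions near the macrophage markers 1 was higher in C26 (median log2 change 0.25) and 3 in 8025 (0.75). The endothelial promoter had 10.3 to 14.8 tags in C26 cachexia against 7.97 to 10.25 in C26 PBS, and 7.37 to 11.2 in 8025 cachexia against 4.99 to 9.26 in 8025 PBS. The summed stellate cell promoters had 56.5 to 72.3 tags in C26 cachexia against 51.7 to 85.4 in C26 PBS, and 53.04 to 75.9 in 8025 cachexia against 77.6 to 100.3 in 8025 PBS. The part of these in the results below was not tested; in a sorted bulk population, fewer cells with an open site and a less open site in each cell cannot be told apart.

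A group of 5 BALB/c libraries stood apart at the alpha-class cluster on chromosome 9. At the Gsta1 promoter (chr9:78229675-78230075, mm10) the signal was 7.51 in C26 cachexia replicate 2, 20.1 in C26 pre-cachexia replicate 2, 18.8 in C26 PBS replicate 2, 14.1 in NC26 tumor replicate 3 and 12.7 in NC26 tumor replicate 4. The other 15 BALB/c libraries had 0 to 4.25 tags there, and the 15 C57BL/6N libraries had 17.2 to 37.05, so that 2 of the 5 lay within the C57BL/6N range and 3 between the ranges of the strains. In a check chosen after these values were seen, each library was placed, at regions that differed by a log2 of at least 2 between NC26 PBS and MC38 PBS mice, on a scale on which the mean of the NC26 PBS (BALB/c) libraries is 0 and that of the MC38 PBS (C57BL/6N) libraries is 1. At the 17 such regions within 5 Mb of the Gsta1 promoter the median position was 0.544 to 0.856 in the 5 libraries and -0.137 to 0.172 in the other 15 BALB/c libraries. These 17 include the Gsta1 promoter region by which the 5 libraries were picked, and windows that overlap it. Part of this separation was therefore fixed by the choice. The other 15 include the NC26 PBS libraries that set the 0 of the scale. At 85 other regions of chromosome 9 the median position was 0.0848 to 0.443 in the 5 libraries and -0.105 to 0.177 in the other 15, and over all 2657 regions outside the 5 Mb it was 0 to 0.0577 in the 5 libraries. The 5 libraries thus lay nearer to C57BL/6N around Gsta1, and with BALB/c by the median over the 2657 regions outside the 5 Mb. At the other chromosome 9 regions, replicate 2 of C26 PBS (0.443), pre-cachexia (0.326) and cachexia (0.31) lay above the other 15 BALB/c libraries. NC26 tumor replicate 4 (0.186) also lay above them, and NC26 tumor replicate 3 (0.0848) lay within their range. Which alleles the 5 animals carry around Gsta1 or on the rest of chromosome 9 was not tested, so their strain label is in doubt there. Counts for the comparisons that use these libraries are therefore also given without them.

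The promoters printed here are those of the genes on which the results below turn: both start sites of Sult2a8, of which the upstream was called lower in cachexia and the downstream was not called, the promoter of Gsta3, which was not called while regions in and past the gene were lower, that of Gstp1, which fell in both cachexia cohorts, and that of Sult1d1, which was higher in C26 cachexia. Each sequence is the 250 bases before a RefSeq start site in GRCm38.p6 (the assembly that mm10 names), read 5' to 3' on the gene's strand. The coordinates are chr7:14446588-14446837 (minus strand) for the upstream and chr7:14438552-14438801 (minus) for the downstream Sult2a8 start, chr1:21240335-21240584 (plus) for Gsta3, chr19:4037913-4038162 (minus) for Gstp1 and chr5:87569007-87569256 (minus) for Sult1d1. Capitals mark matches to C/EBP (TTGCNNAA) and glucocorticoid receptor (ACANNNTGT) motifs in Sult2a8, to the antioxidant response element (TGACNNNGC) and C/EBP in Gsta3, and to the xenobiotic response element (GCGTG) in Gstp1 and Sult1d1, on either strand.
Sult2a8 upstream start: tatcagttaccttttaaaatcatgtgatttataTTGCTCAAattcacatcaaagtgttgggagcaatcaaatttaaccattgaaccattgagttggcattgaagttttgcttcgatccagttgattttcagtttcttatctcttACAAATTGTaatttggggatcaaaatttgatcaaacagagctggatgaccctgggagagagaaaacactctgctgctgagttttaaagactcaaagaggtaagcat
Sult2a8 downstream start: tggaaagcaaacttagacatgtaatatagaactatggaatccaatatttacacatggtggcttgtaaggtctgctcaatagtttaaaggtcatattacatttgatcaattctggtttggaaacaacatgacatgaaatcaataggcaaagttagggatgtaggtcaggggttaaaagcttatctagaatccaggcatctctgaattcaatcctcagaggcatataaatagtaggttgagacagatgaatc
Gsta3: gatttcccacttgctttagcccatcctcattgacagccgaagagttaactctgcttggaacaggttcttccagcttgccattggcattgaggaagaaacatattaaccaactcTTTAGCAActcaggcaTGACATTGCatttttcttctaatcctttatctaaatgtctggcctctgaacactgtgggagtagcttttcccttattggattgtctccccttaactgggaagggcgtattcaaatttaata
Gstp1: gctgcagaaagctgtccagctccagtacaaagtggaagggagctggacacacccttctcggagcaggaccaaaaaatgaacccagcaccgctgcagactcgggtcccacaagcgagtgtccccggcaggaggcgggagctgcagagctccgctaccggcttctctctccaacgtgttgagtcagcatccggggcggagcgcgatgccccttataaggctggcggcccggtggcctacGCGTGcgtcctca
Sult1d1: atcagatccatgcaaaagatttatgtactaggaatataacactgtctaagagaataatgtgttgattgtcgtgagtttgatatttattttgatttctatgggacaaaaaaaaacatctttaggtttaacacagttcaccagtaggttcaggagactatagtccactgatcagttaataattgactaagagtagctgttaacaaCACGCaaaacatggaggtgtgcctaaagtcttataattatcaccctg

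In the upstream Sult2a8 promoter the C/EBP match begins 217 bases and the glucocorticoid receptor match 106 bases before the start site, and the downstream promoter held neither motif. The Gsta3 antioxidant response element begins 121 bases and its C/EBP match 137 bases before the start, and the matches do not overlap. The Gstp1 match lies 13 bases and the Sult1d1 match 47 bases before the start. A promoter was found in the RefSeq table for 53 of the 60 genes, 64 promoters in all. Over windows from 250 bases before to 50 after the start, C/EBP matched 13 of these 64 (20.3%, against 10.8% of all 32851 promoters), the antioxidant response element 3 (4.69% against 12.4%: Gsta3, Gstm5 and Gstm7), the xenobiotic response element 12 (18.8% against 32.4%), the glucocorticoid receptor motif 4 (6.25% against 6.85%) and STAT (TTCNNNGAA) 4 (6.25% against 8.3%). The HNF1 motif and direct repeats of AGGTCA with spacing 4 or 1 matched none of the 64. A match describes the letters only.

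In C26 cachexia, conjugation gene regions lost accessibility more often than they gained it. Of 557 regions, 118 were lower and 29 higher than in C26 PBS (limma on all regions, Benjamini-Hochberg adjusted p at most 0.05), while 7.13% of all 177251 tested regions were lower and 6.91% higher (14.0% in either direction); the members' shares were 21.2% lower and 5.21% higher. The median log2 change was -0.18 over the members and -0.01 over all regions. The 8025 cachexia comparison gave 111 lower and 22 higher regions, 19.9% and 3.95% of the members, against 5.38% lower and 6.99% higher (12.4% in either direction) among all regions, with medians of -0.28 and -0.01. Every cachexia library lay below every PBS library at 94 of the 118 regions called lower in C26 and at 107 of the 111 called lower in 8025. These regions were already chosen by the call. Called or not, 18.9% of members and 6.58% of all regions were so ordered in C26, and 28.4% and 9.16% in 8025. The reverse order held for 7% of members and 8.64% of all regions in C26, and for 7.36% and 13.5% in 8025. The 8025 PBS group has fewer libraries than C26 PBS, so these shares cannot be compared between cohorts. Without the 5 libraries above, 90 members were lower and 22 higher in C26 cachexia (17774 called in either direction among all regions).

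**Figure D1:**
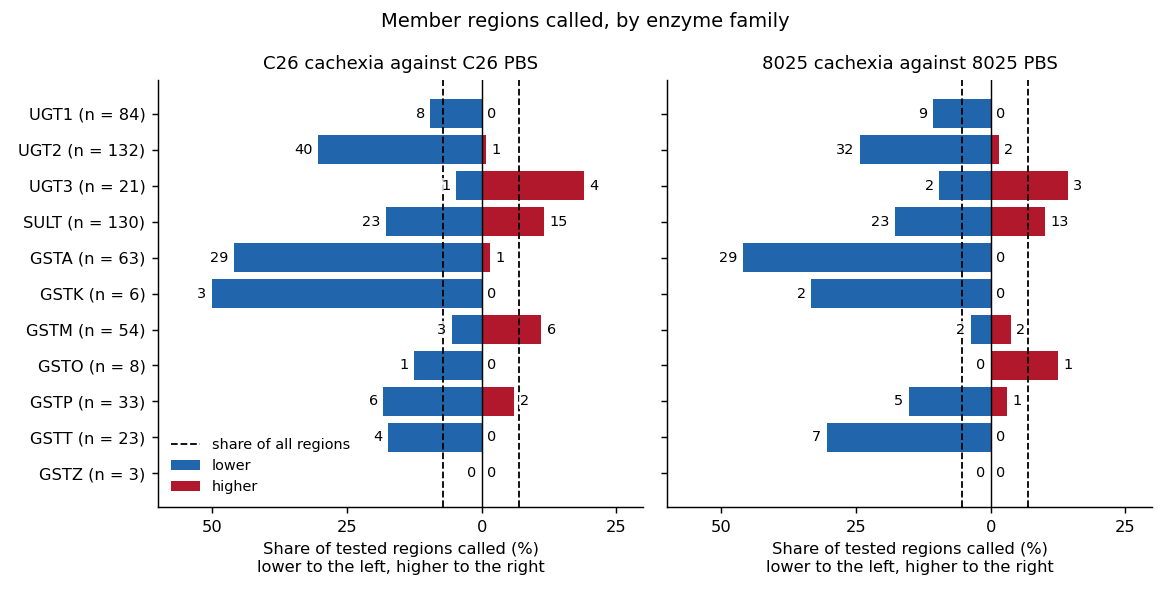
Share of the tested regions of each enzyme family called lower or higher in C26 cachexia against C26 PBS and in 8025 cachexia against 8025 PBS, in percent, with the share over all 177251 regions as dashed lines. Of the 63 GSTA regions 29 were lower in each cohort, and the lower shares of UGT2, 30.3% in C26 and 24.2% in 8025, lie beyond the dashed lines at 7.13% and 5.38%. Numbers beside the bars count regions.

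The losses were unequal between families. In C26 cachexia 29 of 63 GSTA and 40 of 132 UGT2 regions were lower, and 1 GSTA and 1 UGT2 region were higher. In 8025 cachexia 29 GSTA and 32 UGT2 regions were lower, against 0 and 2 higher. The UGT1 family had 8 lower regions (9.52%) in C26 and 9 (10.7%) in 8025 out of 84, and none higher. Of all regions 7.13% were lower in C26 and 5.38% in 8025, so the UGT1 share in C26 was near that of all regions. SULT regions were called in both directions, with 23 lower and 15 higher in C26 and 23 lower and 13 higher in 8025 out of 130. GSTM regions split 3 lower (5.56%) and 6 higher (11.1%) in C26, and 2 lower and 2 higher (3.7% each) in 8025, out of 54. With scaling by library totals only, the counts of lower regions were 23 for GSTA, 26 for UGT2, 3 for UGT1 and 19 for SULT in C26, and 27, 20, 7 and 21 in 8025. Under that scaling 4.38% of all regions were lower and 5.55% higher in C26, and 2.88% lower and 6.43% higher in 8025. For the GST classes with fewer regions that scaling gave 2 lower GSTT, 4 lower GSTP and 3 lower GSTK regions in C26 and 3, 5 and 0 in 8025. It gave 2 lower and 3 higher GSTM regions in C26 and 2 lower and 1 higher in 8025, and 0 called GSTO regions in either cohort. By distance, 10.2% of the 108 members within 1 kb of a start site and 23.8% of the 449 farther ones were lower in C26 cachexia, against 3.16% and 8.03% of all regions at those distances. In 8025 cachexia these shares were 15.7% and 20.9% of members, against 4.43% and 5.60% of all regions.

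Among the UGT2B genes, whose enzymes glucuronidate steroids, bile acids and drugs, 37 of 95 regions were lower and 0 higher in C26 cachexia, and 25 were lower and 1 higher in 8025 cachexia. At Ugt2b36, 2 of 21 regions were lower in C26 and 4 in 8025, so most were not called. The median log2 changes over its regions were -0.32 and -0.25. The deepest fall of a named region was in Ugt2b36, at an exonic region (chr5:87080697-87081097) 11658 bp downstream of its start. It had 6.34, 5.93, 2.59 and 2.06 tags in the C26 cachexia libraries and 29.5, 46.8, 33.4 and 23.9 in C26 PBS. In 8025 it had 2.37, 8.24, 8.42 and 5.82 tags in cachexia and 16.2, 14.1 and 22.9 in PBS. The groups did not overlap in either cohort, and the log2 changes were -2.85 ± 0.28 (SE, limma adjusted p = 7.95e-10) in C26 and -1.50 ± 0.31 (adjusted p = 0.00055) in 8025.

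At Ugt2b1, a major mouse hepatic UGT, 9 of 15 regions were lower in each cohort. An intergenic region 11933 bp upstream (chr5:86938236-86938636) held 21.9, 12.7, 9.72 and 9.60 tags in C26 cachexia against 42.1, 63.1, 52.6 and 53.97 in C26 PBS. It held 6.51, 14.1, 16.6 and 11.6 tags in 8025 cachexia against 41.8, 49 and 38.8 in 8025 PBS. All cachexia libraries were lower than all PBS libraries, with log2 changes of -2.02 ± 0.24 (adjusted p = 3.6e-08) and -1.85 ± 0.25 (adjusted p = 1.48e-06). The Ugt2b1 promoter (chr5:86926450-86926850) changed less: it averaged 33.8 ± 4.92 tags in 8025 cachexia and 49.2 ± 3.20 in 8025 PBS (log2 change -0.59, adjusted p = 0.0148), and 32.7 ± 6.01 in C26 cachexia and 40.01 ± 5.22 in C26 PBS (-0.34, adjusted p = 0.146). The 8025 call at this promoter ended with scaling by library totals only and without 8025 PBS replicate 2 or 8025 cachexia replicate 4 (highest adjusted p = 0.105). Lower calls also gathered at Ugt2b35, with 11 of 22 regions in C26 and 6 in 8025, and at Ugt2b5, with 10 of 16 and 4. The Ugt2b5 promoter did not pass in C26 (log2 change -0.37, adjusted p = 0.25) or 8025 (-0.63, adjusted p = 0.051). In 8025 it did pass with a pseudocount of 5, without the series term, with edgeR, with DESeq2 and without cachexia replicate 1 (lowest adjusted p = 0.0237).

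The Ugt2a subfamily, whose best known members act in olfactory tissue, had 3 lower (8.11%) and 1 higher of 37 regions in C26. In 8025 it had 7 lower (18.9%) and 1 higher, and all lower ones of both cohorts lay at Ugt2a3. The lower share in C26 was near the 7.13% of all regions, while 5.38% of all regions were lower in 8025. Ugt1a1, which conjugates bilirubin, had no called region among 5 in either cohort. Its promoter (chr1:88211717-88212117) was among the most open member sites, at 233.0 ± 7.83 tags in C26 cachexia and 215.2 ± 30.8 in C26 PBS (log2 change 0.07, 95% interval -0.09 to 0.23), and 230.5 ± 25.9 in 8025 cachexia and 239.3 ± 33.6 in 8025 PBS (-0.10, -0.28 to 0.07).

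At Ugt3a1, whose human counterpart uses UDP-N-acetylglucosamine as donor, regions moved both ways. An exonic region 26660 bp into the gene (chr15:9306289-9306689) rose, with 24.3, 36.8, 28.5 and 41.8 tags in C26 cachexia against 9.39, 7.01, 14.6 and 7.24 in C26 PBS (log2 change 1.66 ± 0.30, adjusted p = 0.000101). It also rose in 8025 cachexia, with 38.1, 38.8, 29.5 and 30.8 tags against 15.9, 9.52 and 14.9 in PBS (1.26, adjusted p = 0.00695). The cachexia libraries were above every PBS library in both cohorts. The Ugt3a1 promoter (chr15:9279589-9279989) had a log2 change of -0.58 in C26 (adjusted p = 0.0513) and of -0.35 in 8025 (adjusted p = 0.358). In C26 it passed with a pseudocount of 5, with the compared cohorts only, with DESeq2 and without cachexia replicate 1 or 4 (lowest adjusted p = 0.0294).

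Among sulfotransferases, the hydroxysteroid and bile acid class SULT2 carried most of the losses, with 19 of 57 regions lower in each cohort. This class also had 4 higher regions in C26 and 7 in 8025. Of the 19 lower ones, 16 in C26 and 14 in 8025 lay at Sult2a8, a mouse hepatic bile acid sulfotransferase. Sult2a8 had 1 higher region in C26 and 0 in 8025. Its upstream promoter region (chr7:14446487-14446887) fell to a few tags: 8.18, 3.16, 3.89 and 1.71 tags remained in C26 cachexia, against 19.9, 31.2, 34.98 and 26.1 in C26 PBS. In 8025 cachexia 1.18, 2.42, 2.32 and 8.73 tags remained, against 20.9, 35.96 and 21.9 in 8025 PBS. No cachexia library reached a PBS library, and the signal was 6.28-fold lower in C26 (log2 change -2.65 ± 0.35, adjusted p = 1.32e-06) and 6.87-fold lower in 8025 (-2.78 ± 0.38, adjusted p = 3.36e-06).

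The region at the downstream Sult2a8 start site was not called. This region (chr7:14438543-14438943) had 90.3, 62.5, 68.4 and 54.2 tags in C26 cachexia and 53.4, 74.6, 83.0 and 38.4 in C26 PBS (log2 change 0.12, 95% interval -0.20 to 0.44). It had 79.8, 78.8, 73.0 and 80.6 tags in 8025 cachexia and 73.2, 70.9 and 80.5 in 8025 PBS (0.01, -0.34 to 0.35). The groups overlapped in both cohorts. Of the sequences printed above for this gene, the upstream one holds the C/EBP and glucocorticoid receptor letters and the downstream one does not. Whether these letters relate to the signal was not tested. The other lower Sult2a8 regions lay within the gene and past its end, as far as 41566 bp from the start site listed for them, except for 1 region 6215 bp upstream of the upstream start that was lower in C26.

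**Figure D2:**
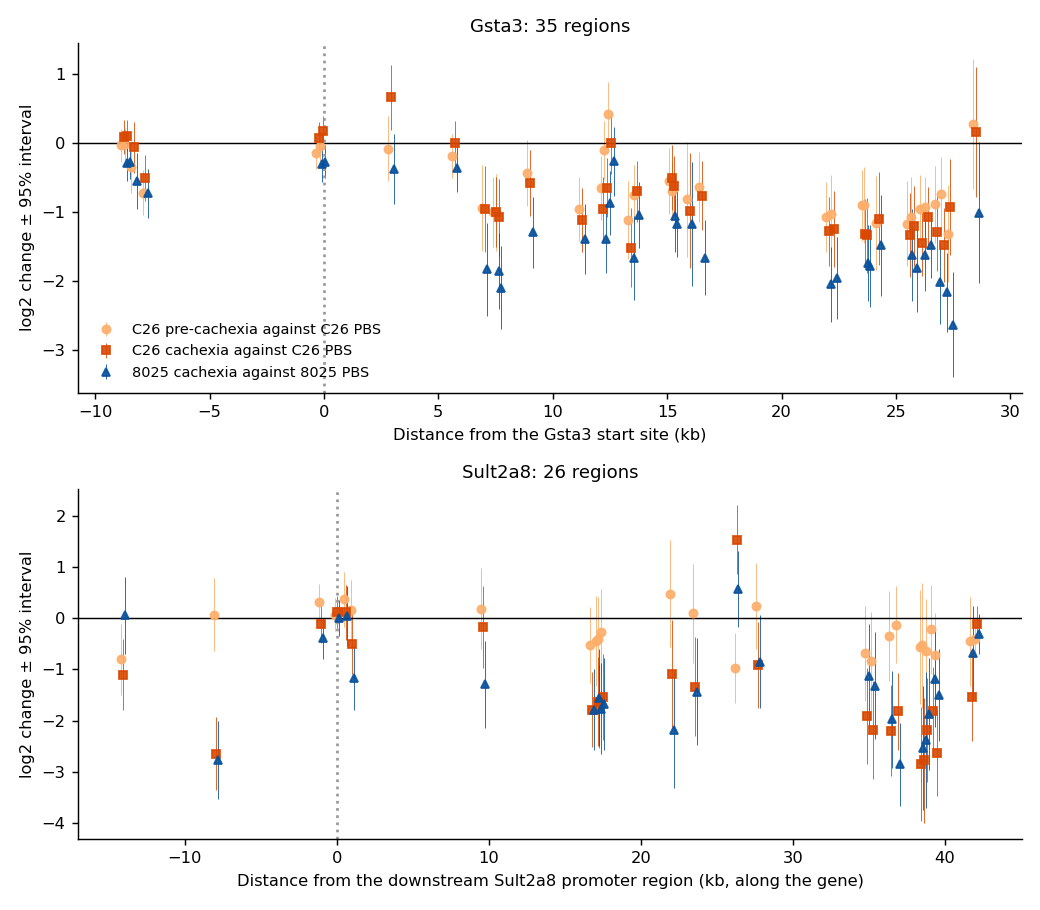
Log2 change with 95% interval of every tested region named for Gsta3 (35 regions) and Sult2a8 (26 regions), by distance in kb from the Gsta3 start site and from the downstream Sult2a8 promoter region, for C26 pre-cachexia against C26 PBS, C26 cachexia against C26 PBS and 8025 cachexia against 8025 PBS. The Gsta3 promoter lies at 0.17 in C26 and -0.27 in 8025 cachexia while regions in and past the gene lie below it, and the upstream Sult2a8 promoter lies at -2.65 in C26 and -2.78 in 8025 cachexia.

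SULT1 genes, whose enzymes sulfonate phenols, catechols and estrogens, had 8 higher (18.6%) and 3 lower (6.98%) of 43 regions in C26 cachexia. In 8025 they had 3 higher and 3 lower (6.98% each). Of all regions, 6.91% were higher and 7.13% lower in C26, and 6.99% higher and 5.38% lower in 8025. Apart from the higher share in C26, the SULT1 shares were near those of all regions. At Sult1d1, a mouse enzyme for catecholamines and other phenols, an intronic region 1517 bp downstream of the start (chr5:87567289-87567689) held 39.6, 47.5, 49.6 and 61.0 tags in C26 cachexia against 11.9, 5.74, 19.2 and 9.42 in C26 PBS. In 8025 it held 45.5, 31.02, 43.8 and 28.2 tags in cachexia against 19.6, 15.5 and 17.5 in PBS. The cachexia libraries were above all PBS libraries, with log2 changes of 2.05 ± 0.27 (adjusted p = 2.69e-07) in C26 and 0.97 ± 0.29 (adjusted p = 0.0198) in 8025. The Sult1d1 promoter rose in C26, to 55.3 ± 8.92 tags in cachexia against 34.6 ± 4.48 in PBS (0.60, adjusted p = 0.00665), and averaged 52.6 ± 6.10 in 8025 cachexia and 41.96 ± 8.74 in 8025 PBS (0.28, adjusted p = 0.33). The 8025 call at the intronic region ended without cachexia replicate 1 or 3 or PBS replicate 2 or 4 (highest adjusted p = 0.0936), and the C26 call at the promoter without the 5 BALB/c libraries (adjusted p = 0.0725).

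Sult1e1, the estrogen sulfotransferase, lies beside Sult1d1. Its named region (chr5:87589886-87590286, exonic) averaged 52.5 ± 6.40 tags in C26 cachexia and 30.4 ± 10.3 in C26 PBS (log2 change 0.76, adjusted p = 0.00139; groups overlapped), and 53.3 ± 7.99 in 8025 cachexia and 29.2 ± 3.15 in 8025 PBS (0.79, adjusted p = 0.00275; no overlap). Its promoter region (chr5:87591477-87591877) lies below the signal limit for naming and was chosen after its values were seen. There, 5.81, 11.1, 14.9 and 24 tags were found in C26 cachexia, against 1.07, 0, 0.62 and 0.72 in C26 PBS. In 8025 there were 14.8, 6.54, 8.84 and 3.49 tags in cachexia, against 2.49, 1.41 and 1.03 in PBS. Every cachexia library was above every PBS library of its cohort, and the PBS libraries were near 0, with log2 changes of 3.10 (adjusted p = 3.39e-06) and 1.67 (adjusted p = 0.0197).

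Sult1a1, the main phenol sulfotransferase, gained at its promoter (chr7:126676226-126676626) in C26 cachexia, with 98.5, 93.3, 103 and 87.8 tags against 71.5, 72.0, 54.2 and 48.5 in C26 PBS (log2 change 0.59 ± 0.15, adjusted p = 0.00479; no overlap). In 8025 it averaged 86.4 ± 14.2 tags in cachexia and 76.4 ± 21.7 in PBS (0.15, adjusted p = 0.646). The Sult1b1 promoter, of an enzyme for thyroid hormones, passed in neither cohort (0.02 and -0.23). Sult1c2 carried the 3 lower SULT1 regions of C26. A region 24212 bp upstream of it (chr17:53869970-53870370) averaged 8.63 ± 4.03 tags in 8025 cachexia and 31.6 ± 1.99 in 8025 PBS (-1.91 ± 0.27, adjusted p = 2.11e-06).

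Other SULT regions rose. Of 7 Sult3a2 regions, 1 was higher and 1 lower in C26 cachexia, and 3 were higher and 0 lower in 8025 cachexia. At Sult3a2, an intergenic region 5582 bp upstream (chr10:33787497-33787897) had 22.7, 32.4, 35.3 and 57.6 tags in C26 cachexia against 5.12, 10.5, 5.57 and 7.24 in C26 PBS, a log2 change of 2.16 ± 0.38 (adjusted p = 0.000116). It had 59.7, 25.9, 22.7 and 34.6 tags in 8025 cachexia against 15.6, 16.2 and 4.63 in 8025 PBS (1.49 ± 0.41, adjusted p = 0.0132). The 8025 call ended with the compared cohorts only and without cachexia replicate 1 or PBS replicate 4 (highest adjusted p = 0.156). An intronic region of Sult2a1, a hydroxysteroid sulfotransferase (chr7:13813940-13814340), averaged 103.7 ± 12.1 tags in C26 cachexia and 57.7 ± 12.3 in C26 PBS (0.80, adjusted p = 0.000571), and 101.1 ± 24.3 in 8025 cachexia and 40.9 ± 1.23 in 8025 PBS (1.20, adjusted p = 6.03e-06). These groups did not overlap, so losses at Sult2a8 and a gain at Sult2a1 occurred within the same gene cluster. Within it, an intergenic region near Sult2a6 was also higher in C26 (0.84, adjusted p = 0.0135, and 0.0677 without PBS replicate 4) and a region near Sult2a7 lower in 8025 (-1.76, adjusted p = 2.57e-05). At the promoter of Sult2b1, which sulfonates cholesterol and pregnenolone, 29.6, 30.3, 53.7 and 30.6 tags in 8025 cachexia stood against 10.9, 15.2 and 15.4 in 8025 PBS (chr7:45759439-45759839; 1.24 ± 0.31, adjusted p = 0.0043), and Sult2b1 had 4 higher of 6 regions in 8025 and 0 in C26.

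Sult4a1, an orphan enzyme best known from brain, had an intronic region (chr15:84113877-84114277) with 50.95, 47.05, 45.4 and 39.8 tags in C26 cachexia against 17.1, 25.2, 25.4 and 18.8 in C26 PBS (log2 change 1.01 ± 0.21, adjusted p = 0.000438). In 8025 this gene had 0 of 4 regions called.

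**Figure D3:**
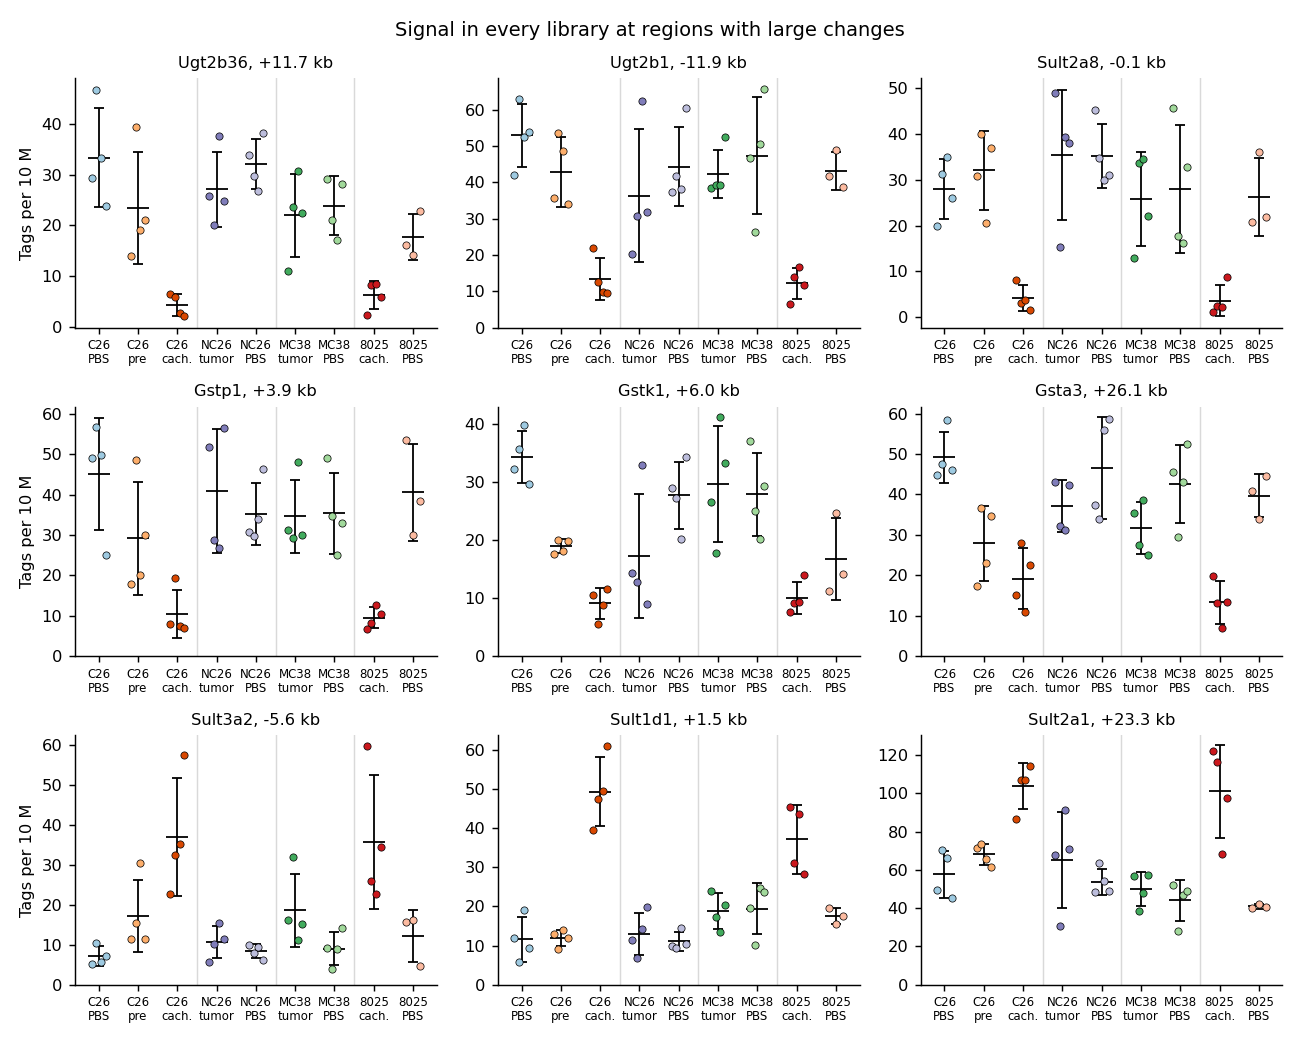
Signal of 9 member regions in each of the 35 libraries, in tags per 10 M, by group; each point is a library, and bars give the mean ± SD. Regions of Ugt2b36, Ugt2b1, Sult2a8 (upstream promoter), Gstp1 and Gsta3 are low and the Sult1d1 and Sult3a2 regions high in both cachexia groups, while tumor and PBS groups of NC26 and MC38 overlap.

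Gsta3, an alpha-class GST that detoxifies the aflatoxin B1 epoxide in mice, had the most lower regions of any member gene, 22 of 35 in C26 cachexia and 25 of 35 in 8025 cachexia. A region past its end (chr1:21266533-21266933) had 15.1, 28.1, 11.02 and 22.6 tags in C26 cachexia against 44.8, 47.5, 58.5 and 46 in C26 PBS. A neighboring region (chr1:21267478-21267878) had 9.76, 7.03, 4.42 and 5.82 tags in 8025 cachexia against 33.97, 25.4 and 36.8 in 8025 PBS. The groups did not overlap, and the log2 changes were -1.44 ± 0.24 (adjusted p = 2.41e-05) and -2.16 ± 0.28 (adjusted p = 5.38e-07). The promoter (chr1:21240325-21240725) averaged 131.9 ± 19.6 tags in C26 cachexia and 116.6 ± 38.3 in C26 PBS (0.17, 95% interval -0.05 to 0.39), and 132.1 ± 22.1 in 8025 cachexia and 152.9 ± 12.6 in 8025 PBS (-0.27, -0.51 to -0.04; adjusted p = 0.128, and 0.0435 without cachexia replicate 1). Apart from the upstream region described below for pre-cachexia, the lower regions lay in the gene and past its end. Of the 558 members at all genes, 232 overlap a neighboring region, so that counts within a gene are not counts of independent sites.

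The other alpha-class genes lie on chromosome 9. At Gsta2, 2 of 12 regions were lower and 0 higher in each cohort. An intronic Gsta2 region (chr9:78344460-78344860) had 16.4, 11.1, 7.13 and 7.54 tags in C26 cachexia against 21.8, 27.4, 34.7 and 21.7 in C26 PBS (log2 change -1.35 ± 0.24, adjusted p = 7.49e-05), and 4.73, 5.82, 8.42 and 3.49 in 8025 cachexia against 21.8, 17.98 and 18.8 in 8025 PBS (-1.72 ± 0.26, adjusted p = 7.13e-06). A region 1651 bp upstream of Gsta1 (chr9:78228818-78229218) averaged 12.8 ± 3.72 tags in 8025 cachexia and 36.3 ± 11.4 in 8025 PBS (-1.47 ± 0.34, adjusted p = 0.00319). The promoter of Gsta4, whose enzyme clears the lipid peroxidation product 4-hydroxynonenal, passed in neither cohort (-0.32 in C26, adjusted p = 0.383; -0.44 in 8025, adjusted p = 0.255).

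Gstp1, a pi-class enzyme, lost signal both at its promoter and past its end, with 5 of 8 regions lower in each cohort. The promoter (chr19:4037808-4038208) had 92.9, 120, 69.3 and 87.1 tags in C26 cachexia against 157, 156, 130 and 119 in C26 PBS (log2 change -0.67 ± 0.11, adjusted p = 2e-05), so that 1 library of each group overlapped. In 8025 it had 85.2, 81.9, 73.5 and 82.0 tags in cachexia against 134, 148 and 143 in PBS, without overlap (-0.86 ± 0.12, adjusted p = 1.58e-06). The region 3894 bp downstream (chr19:4033818-4034218) fell further, with 7.92, 19.4, 7.45 and 6.86 tags in C26 cachexia against 49.1, 56.7, 49.8 and 24.99 in C26 PBS (-2.13 ± 0.28, adjusted p = 7.8e-07). The neighboring Gstp3 had 2 higher regions of 20 in C26 and 1 in 8025, and none lower; the named ones lay 7835 bp upstream in C26 (1.13 ± 0.32, adjusted p = 0.0116) and 1873 bp upstream in 8025 (0.87 ± 0.28, adjusted p = 0.0319). The C26 call ended without the 5 BALB/c libraries (adjusted p = 0.0803), and the 8025 call without any 1 of PBS replicates 1 and 2 and cachexia replicates 1 and 3 (highest adjusted p = 0.225).

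Gstk1, the kappa-class enzyme of mitochondria and peroxisomes, fell at a region 6013 bp downstream of its start (chr6:42251748-42252148), which had 10.6, 5.54, 8.75 and 11.7 tags in C26 cachexia against 32.2, 35.7, 39.9 and 29.7 in C26 PBS (log2 change -1.90 ± 0.26, adjusted p = 9.14e-07), without overlap. Its promoter had log2 changes of 0.17 in C26 (adjusted p = 0.335) and -0.15 in 8025 (adjusted p = 0.457). The theta class, which acts on small haloalkanes, had 4 lower regions of 23 in C26 and 7 in 8025, or 2 and 3 with library totals only. The Gstt2 promoter (chr10:75835372-75835772) averaged 37.9 ± 15.5 tags in C26 cachexia and 67.2 ± 10.6 in C26 PBS (-0.94, adjusted p = 0.0258), and 60.5 ± 16.8 in 8025 cachexia and 119.7 ± 31.5 in 8025 PBS (-1.03, adjusted p = 0.0269). These Gstt2 calls were not stable: that of C26 ended with the compared cohorts only, without the 5 BALB/c libraries and without any 1 of PBS replicates 1, 2 and 4 and cachexia replicates 2 and 4 (highest adjusted p = 0.16), and that of 8025 without any 1 of PBS replicates 1 and 4 and cachexia replicates 1 and 4 (highest adjusted p = 0.122). The Gstt1 promoter was lower in 8025 cachexia, at 26.9 ± 5.41 tags against 43.01 ± 9.78 in 8025 PBS (-0.71, adjusted p = 0.0136), and had a log2 change of -0.10 in C26 (adjusted p = 0.795). Its 8025 call ended with library totals only and without PBS replicate 2 or cachexia replicate 4 (highest adjusted p = 0.157).

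In the mu class, the promoters of Gstm1, Gstm2 and Gstm3 passed in neither cohort, with adjusted p of 0.103 to 0.824 in the 6 tests; without C26 cachexia replicate 3 that of Gstm2 passed in C26 (adjusted p = 0.0264). An intronic Gstm3 region (chr3:107966660-107967060) fell in C26 cachexia, to 6.76 ± 3.27 tags against 16.7 ± 3.30 in C26 PBS (log2 change -1.32 ± 0.28, adjusted p = 0.000537). Of 9 Gstm3 regions, 1 was lower and 1 higher in each cohort. Gstz1, which isomerizes maleylacetoacetate in tyrosine breakdown, had 0 of 3 regions called in either cohort, and its promoter changes had 95% intervals of -0.14 to 0.21 in C26 and -0.26 to 0.11 in 8025. The Gsto1 promoter, of an omega-class thioltransferase, passed in neither, and the Gsto2 promoter, of a dehydroascorbate reductase (chr19:47865547-47865947), rose in 8025 cachexia to 127.7 ± 8.62 tags against 87.9 ± 24.1 in 8025 PBS (0.52, adjusted p = 0.00419). The Gsto2 call ended with library totals only and without PBS replicate 1 (highest adjusted p = 0.109).

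The C26 and 8025 cohorts share no library, but both were tested in the same fit, with a common estimate of spread per region. Of the regions called lower, 75 were called in both, 63.6% of those of C26 and 67.6% of those of 8025; over all regions, 37.2% of the lower calls of C26 were lower in 8025. Of the regions called higher, 9 were shared, 9 of 29 in C26 and 9 of 22 in 8025, where over all regions 45.8% of the higher calls of C26 were higher in 8025, and 0 members were called in opposite directions. The log2 changes had the same sign in 430 of 557 members (77.2%, against 68.2% of all regions), and Pearson's r across members was 0.777, against 0.616 across all regions; members overlap and share libraries, so this is a description. The difference between the 2 effects passed the limma threshold at 0 members, where 0.103% of all regions passed and 58 members had an unadjusted p under 0.05; edgeR's quasi-likelihood test called 0 and DESeq2 1, and limma called 1 without 8025 cachexia replicate 1. That count does not show that the effects are alike.

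**Figure D4:**
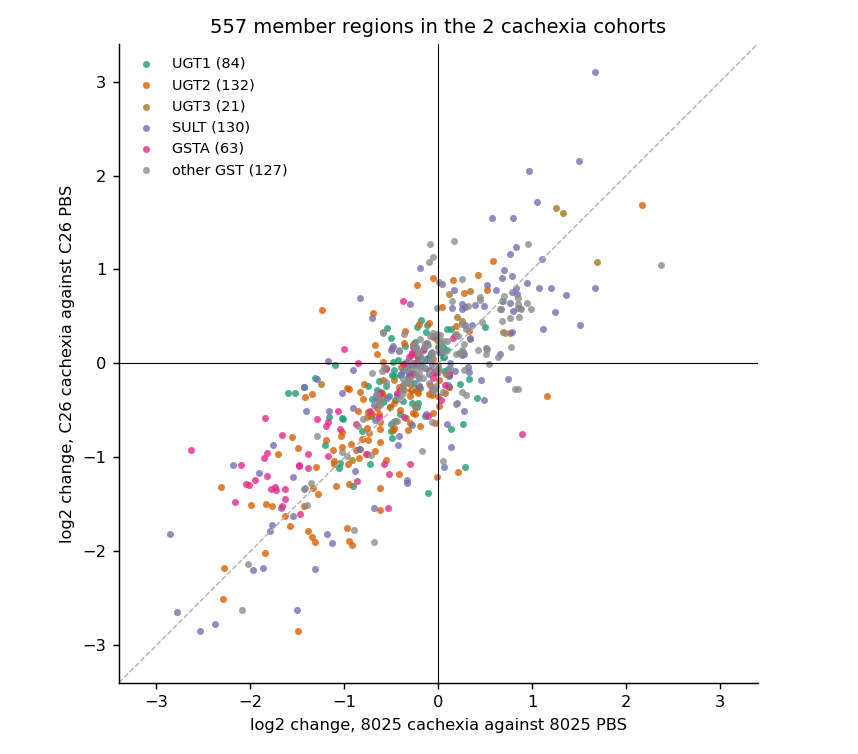
Log2 change of each of the 557 tested members in C26 cachexia against C26 PBS (vertical) by its change in 8025 cachexia against 8025 PBS (horizontal), colored by enzyme family, with the line of equal change dashed. The changes have the same sign in 430 members, and Pearson's r is 0.777.

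In pre-cachexia mice, most of the lower calls lay at a single gene. Against C26 PBS, 13 members were lower and 4 higher, where 0.296% of all regions were lower and 0.970% higher (1.27% in either direction). With scaling by library totals only, 0 were lower and 4 higher, where 0.0801% of all regions were lower and 0.943% higher. Without the 5 libraries above, 6 were lower and 1 higher (1184 called in either direction among all regions). The count also rested on single libraries: limma called 1 member in either direction without pre-cachexia replicate 1, 7 without pre-cachexia replicate 2, 8 without pre-cachexia replicate 3, 10 without pre-cachexia replicate 4, and 3, 8 and 4 without PBS replicates 1, 2 and 3. Of the 13 lower regions, 11 lay at Gsta3, whose 35 regions had a median log2 change of -0.76, and the other lower regions were in introns near Ugt1a6a and Ugt1a6b, phenol UGTs of the shared Ugt1a locus. Across the C26 stages, the Gsta3 region 7811 bp upstream (chr1:21232574-21232974) had 35.4, 58.3, 39.9 and 32.6 tags in PBS, 22.5, 37.0, 22.7 and 24.4 in pre-cachexia and 28.5, 34, 23.3 and 32.6 in cachexia. Pre-cachexia was lower than PBS by a log2 change of -0.72 ± 0.16 (adjusted p = 0.0132), with overlap between the groups. That call ended with library totals only and without pre-cachexia replicate 1 or PBS replicate 2 (highest adjusted p = 0.183). The Ugt1a6a call ended with library totals only, without the 5 libraries and without PBS replicate 1 or 2 or pre-cachexia replicate 1, 2 or 3 (highest adjusted p = 0.2). The Ugt1a6b call ended with RLE factors, library totals only, no filter and the replicate block, and without PBS replicate 1, 2 or 3 or pre-cachexia replicate 1, 3 or 4 (highest adjusted p = 0.275). The upstream Sult2a8 promoter, in contrast, had 30.8, 39.9, 20.5 and 36.9 tags in pre-cachexia (log2 change to PBS 0.07, adjusted p = 0.971), and 0 of 26 Sult2a8 regions passed. None of the 108 members within 1 kb of a start site passed in pre-cachexia, where 0.131% of all regions at that distance were lower and 0.473% higher.

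Higher in pre-cachexia were Sult4a1, at the intronic region above with 48.5, 50.8, 30 and 46.3 tags (log2 change 0.88, adjusted p = 0.0175), and Sult5a1, an orphan sulfotransferase, 4607 bp upstream of its start (chr8:123162687-123163087). The Sult5a1 region had 10.5, 29, 16.4 and 43.1 tags in PBS, 60.3, 71.9, 79.2 and 62.4 in pre-cachexia and 35.9, 18.98, 23.01 and 23.7 in cachexia. It was higher than PBS in pre-cachexia (1.51 ± 0.34, adjusted p = 0.0186), with all 4 pre-cachexia libraries above all others of the cohort. Both calls ended without the 5 BALB/c libraries, with adjusted p of 0.116 at Sult4a1 and 0.0999 at Sult5a1. That of Sult4a1 also ended without PBS replicate 1 or pre-cachexia replicate 1, 2 or 4, and that of Sult5a1 without PBS replicate 1 or 3 or pre-cachexia replicate 1 or 3.

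Cachexia and pre-cachexia differed at 48 lower and 15 higher members, where 3.24% of all regions were lower and 2.16% higher in cachexia (5.40% in either direction). Without the 5 libraries above, 13 were lower and 4 higher (2802 called in either direction among all regions). Leaving out 1 library gave 41 calls in either direction without cachexia replicate 2, 39 without cachexia replicate 4, 29 without pre-cachexia replicate 2 and 36 without pre-cachexia replicate 4. The named lower regions were the upstream Sult2a8 promoter (log2 change -2.72, adjusted p = 5.59e-06), Ugt2b36 (-2.19, adjusted p = 1.79e-06), Gstp1 past its end (-1.71, adjusted p = 0.00148) and Ugt2b1 upstream (-1.61, adjusted p = 1.78e-05). The named higher regions lay at Sult1d1 (2.0, adjusted p = 2.94e-06), Ugt1a5 (1.26, adjusted p = 0.0048), Sult1a1 (1.25, adjusted p = 0.00519) and Ugt3a1 (0.93, adjusted p = 0.0152). At all 8, the cachexia libraries did not overlap the pre-cachexia libraries. Without the 5 libraries the calls at Ugt1a5 (adjusted p = 0.0537), Sult1a1 (adjusted p = 0.0938) and Ugt3a1 (adjusted p = 0.114) ended, and that of Ugt3a1 also ended with library totals only and without pre-cachexia replicate 4 or cachexia replicate 4.

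In mice with weight-stable tumors no member passed when all libraries were used. The NC26 tumor comparison called 0 of 557 members, where 0.186% of all regions passed and 68 members had an unadjusted limma p under 0.05; edgeR's quasi-likelihood test called 0 and DESeq2 0. Leaving out the 5 libraries above keeps only replicates 1 and 2 of the NC26 tumor group. Replicate 1 is the library of 3.47 M tags, and replicate 2 has the lowest share of tags in regions of all libraries (37.34%). In that fit limma called 7 members lower and 0 higher in NC26 tumor mice. Among all regions it called 1884 in either direction, and the lower ones were not counted apart. With all libraries, 0.0401% of all regions were lower and 0.146% higher. The 7 members lay at Gstm1, Sult2a7, Sult3a2, Ugt1a6a, Ugt2b34 and Ugt2b35, with log2 changes of -2.82 to -1.11 in that fit and -1.54 to -0.53 with all libraries. With 1 library left out, limma called 4, 2 and 1 members without tumor replicate 2, tumor replicate 3 and PBS replicate 4. The MC38 tumor comparison called 0, where 0.0186% of all regions passed and 32 members had an unadjusted p under 0.05; edgeR's quasi-likelihood test called 0 and DESeq2 0. The median change of members was -0.09 in NC26 (all regions -0.03) and 0.03 in MC38 (all regions 0.00). With scaling by library totals only, which moved the NC26 median of all regions by 0.10, the medians of members and all regions were 0.01 and 0.07 in NC26. Within the library series, a pair of tumor and a pair of PBS libraries each, the member medians were -0.05 and -0.12 in NC26 and 0.03 and 0.03 in MC38. The 111 regions called lower in 8025 cachexia were chosen by the change in that cohort, with an estimate of spread that all cohorts shared. At these regions the median log2 change was -0.99 in C26 cachexia, -0.40 in C26 pre-cachexia, -0.19 in NC26 tumor and -0.09 in MC38 tumor mice.

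At the regions that moved most in cachexia, tumor and PBS values of these mice overlapped. The upstream Sult2a8 promoter had 48.9, 15.4, 39.3 and 37.9 tags in NC26 tumor against 45.2, 34.6, 30.0 and 30.9 in NC26 PBS, and 13.0, 33.5, 34.5 and 22.1 in MC38 tumor against 45.5, 17.6, 16.1 and 32.7 in MC38 PBS. The Ugt2b36 exonic region had 25.9, 20.1, 37.6 and 24.8 tags in NC26 tumor against 34.02, 29.7, 26.8 and 38.2 in NC26 PBS. The Sult1d1 intronic region had 11.5, 6.85, 14.1 and 19.7 tags in NC26 tumor against 9.96, 9.45, 14.6 and 10.3 in NC26 PBS.

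The difference of effects itself was tested. The C26 cachexia effect was lower than the NC26 tumor effect at 25 members and higher at 6, where 1.10% of all regions were lower and 1.04% higher (2.14% in either direction). Without the 5 libraries above the difference was lower at 17 and higher at 2 (2457 called in either direction among all regions). The count in either direction was 20 without C26 PBS replicate 3, 19 without C26 cachexia replicate 4, 18 without NC26 PBS replicate 1 and 18 without NC26 tumor replicate 1. The named lower differences were at Ugt2b36 (log2 difference -2.48 ± 0.40, adjusted p = 0.000312), Sult2a8 upstream promoter (-2.45 ± 0.49, adjusted p = 0.00536), Gstp1 past its end (-2.19 ± 0.40, adjusted p = 0.00174) and Gsta1 upstream (-2.10 ± 0.45, adjusted p = 0.00828). The named higher ones were at Sult1d1 (2.0 ± 0.38, adjusted p = 0.00191), Sult3a2 (1.98 ± 0.54, adjusted p = 0.0428) and Gstm1 (1.54 ± 0.32, adjusted p = 0.00525). Part of the Gstm1 difference lay in the NC26 cohort, where the log2 change of that region was -0.88 (limma adjusted p = 0.0987). The Sult2a8 difference ended without the 5 libraries (adjusted p = 0.0907). The Sult3a2 difference ended in 17 alternatives (highest adjusted p = 0.119), among them edgeR, DESeq2, library totals only, the replicate block, the 5 libraries left out, and the removal of any 1 of C26 PBS replicates 1 to 4, C26 cachexia replicates 2 to 4, NC26 PBS replicates 1 to 3 and NC26 tumor replicates 1 and 4. The 8025 cachexia effect was lower than the MC38 tumor effect at 33 members and higher at 3, where 0.779% of all regions were lower and 0.922% higher (1.70% in either direction). The count in either direction was 18 without 8025 PBS replicate 1, 18 without 8025 PBS replicate 2, 23 without 8025 cachexia replicate 4, 21 without MC38 PBS replicate 3 and 21 without MC38 tumor replicate 3. The Sult2a8 upstream promoter was again named (-2.64 ± 0.52, adjusted p = 0.00475), with Ugt1a7c (-1.91, adjusted p = 0.0316), Gsta3 (-1.81, adjusted p = 0.00498) and Ugt2b35 (-1.75, adjusted p = 0.0217) lower and Sult2a1 (1.05, adjusted p = 0.0149) higher. The Sult2a1 difference ended with library totals only (adjusted p = 0.0901). That of Ugt2b35 ended without 8025 PBS replicate 4, MC38 PBS replicate 3 or MC38 tumor replicate 2 or 3 (highest adjusted p = 0.0688). That of Ugt1a7c ended with library totals only and without 8025 PBS replicate 1, 2 or 4, 8025 cachexia replicate 3 or 4, MC38 PBS replicate 2 or MC38 tumor replicate 2 or 3 (highest adjusted p = 0.0945).

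The PBS mice of the NC26 and MC38 cohorts differ in strain, BALB/c against C57BL/6N, and strain and cohort cannot be told apart. Here 14 members were higher and 16 lower in BALB/c, where 4.16% of all regions were higher and 5.04% lower (9.19% in either direction), so the members' shares of 2.51% and 2.87% were below those of all regions. Scaling by library totals only moved the median of all regions by -0.11 and called 12 higher and 17 lower. The Gsta1 promoter averaged 1.62 ± 1.85 tags in BALB/c and 28.1 ± 8.18 in C57BL/6N PBS mice (log2 change -3.62, adjusted p = 0.000799). The Gsto2 promoter had 134, 132, 135 and 175 tags in BALB/c against 122, 48.04, 92.6 and 107 in C57BL/6N (0.82 ± 0.12, adjusted p = 9.49e-07), and it had 114 to 177 tags in the C26 PBS mice, also BALB/c, and 63.3 to 111 in the 8025 PBS mice, also C57BL/6N. A region near Sult2b1 (chr7:45770391-45770791) was higher in BALB/c, at 23.3 ± 5.75 against 8.72 ± 4.06 tags (1.56, adjusted p = 0.000101). The Gsta4 promoter was lower in BALB/c, at 26.3 ± 6.85 against 50.0 ± 16.8 tags (-0.76, adjusted p = 0.0188), with overlap, and a Gstp1 intronic region lower without overlap, at 33.7 ± 3.80 against 61.3 ± 9.44 tags (-0.72, adjusted p = 0.00823). The other named strain differences were higher in BALB/c near Ugt1a6a (1.03, adjusted p = 0.0035) and Sult3a2 (1.02, adjusted p = 0.00162), and lower near Sult5a1 (-1.41, adjusted p = 0.0054) and Sult4a1 (-0.75, adjusted p = 0.0134). The Gsta4 and Sult4a1 calls ended without NC26 PBS replicate 1 or 3 or MC38 PBS replicate 1 (highest adjusted p = 0.0955 and 0.0849), and the Gstp1 call without MC38 PBS replicate 4 (adjusted p = 0.0616).

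**Figure D5:**
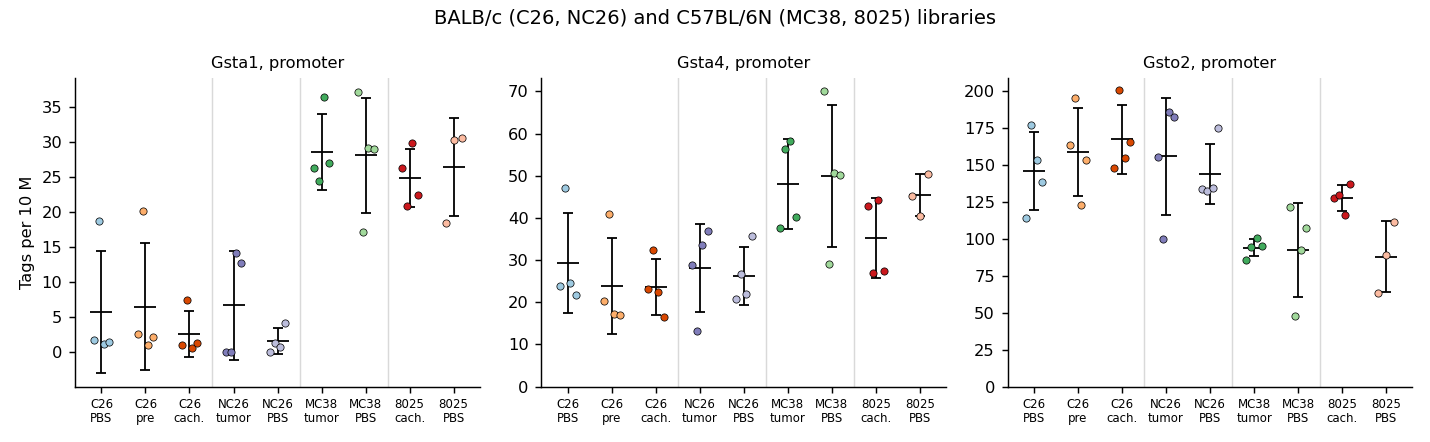
Signal at the promoters of Gsta1, Gsta4 and Gsto2 in every library, in tags per 10 M, by group; each point is a library, bars give the mean ± SD, and grey lines part the cohorts. At Gsta1 all 15 C57BL/6N libraries are at 17.2 or above and 15 of 20 BALB/c libraries at 4.25 or below, with the other 5 BALB/c libraries at 7.51 to 20.1.

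Genes that feed or follow conjugation were counted by the same distance rule and are read against the shares of all regions, 7.13% lower and 6.91% higher in C26 and 5.38% lower and 6.99% higher in 8025. Export pumps, which carry conjugates into bile and blood, had 16 lower and 1 higher of 111 regions in C26 cachexia and 21 lower and 3 higher in 8025 cachexia, which is 14.4% lower and 0.901% higher in C26 and 18.9% lower and 2.70% higher in 8025. Named by lowest adjusted p per gene, Abcb1b was lower in both (log2 change -0.96 in C26, adjusted p = 1.68e-06, and -1.20 in 8025, adjusted p = 1.83e-07), as were Abcc2, the bile canalicular conjugate pump (-0.98 and -1.49), and Abcg2 (-1.60 and -1.65). A region of Abcb11, the bile salt pump, was higher (1.12 and 1.62). Regulators of conjugation genes had 33 lower (7.93%) and 18 higher (4.33%) of 416 regions in C26 and 42 lower (10.1%) and 11 higher (2.64%) in 8025, so the lower share in C26 was near that of all regions. The lower ones included single regions of Cebpa (-1.57 and -2.15), of Nfe2l2, which encodes NRF2 (-1.17 and -1.33), and of Nr3c1, the glucocorticoid receptor (-2.0 and -0.80). Mean promoter levels in cachexia against PBS were mixed. In C26 they were 158.8 against 152.8 tags at Cebpa, 250.5 against 277.2 at Nfe2l2 and 16.04 against 17.78 at Nr3c1. In 8025 they were 243 against 269.7, 328.1 against 394.2 and 21.45 against 18.27. The promoters of Nr1i3 (177.7 against 141.3 and 173.9 against 112.7) and Ahr (162.9 against 125.1 and 195.8 against 149.8) had higher means in both cohorts.

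Cofactor supply genes had 25 lower (8.53%) and 15 higher (5.12%) of 293 regions in C26 and 12 lower (4.10%) and 13 higher (4.44%) in 8025, shares near those of all regions. The same region 49911 bp upstream of Gclm, a subunit of the enzyme that limits glutathione synthesis, was higher in both (log2 change 1.94, adjusted p = 5.32e-06, and 1.95, adjusted p = 2.44e-05), and a region of Slc35d1, a carrier of UDP-glucuronic acid, was lower in both (-1.36 and -1.62). Other conjugation enzymes had 26 lower (13.1%) and 17 higher (8.59%) of 198 regions in C26 and 18 lower (9.09%) and 4 higher (2.02%) in 8025, with a region of Ephx1, the microsomal epoxide hydrolase, lower in both (-1.61 and -0.80). Of the lists for liver zones, 13 pericentral regions were lower (9.63%) and 10 higher (7.41%) of 135 in C26, near the shares of all regions, and 10 lower (7.41%) and 27 higher (20%) in 8025. Of 111 periportal regions 4 were lower (3.60%) and 15 higher (13.5%) in C26, and 12 lower (10.8%) and 11 higher (9.91%) in 8025. These lists were described by counts only.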

How the data were processed

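Paired reads were aligned to mm10 by the authors with BWA 0.7.5a-r405, and SAMtools and HOMER were used downstream, per the submitters' processing notes. How duplicates were treated and which settings gave the peaks is not stated there. The deposited signal of a region is its tag number in a 400 bp window, per the file headers; it covers 177904 merged peaks and is scaled to 10 M tags. Multiplied by the library total, 100% of values were whole read ends within 0.05, each end being 0.5 tag. Because the signal is normalized, limma-trend with robust moderation was fitted to log2(signal + 1) after TMM scaling, over all 35 libraries with 9 groups and the library series. filterByExpr (minimum count 10, total 15) kept 177251 regions. Benjamini-Hochberg adjustment ran over all regions, with a threshold of 0.05. Levels are the authors' values, mean ± SD; changes are on the log2(value + 1) scale, ± SE, which understates changes of low regions. P-values measure the spread between animals.

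Named regions were, among called members at or above the median average signal, the region with the lowest adjusted p per gene, the 8 largest in each direction for cachexia against PBS and 4 elsewhere, and the promoters of 21 fixed genes. The members and lists were chosen with earlier results of these data known. On simulated data (20000 regions, C26 cachexia against PBS), the fit recovered 62% of changes of log2 1 and 99% of log2 2. The changes were placed only in regions above the median signal, with the same dispersion assumed for every region. Same-numbered replicates correlated at -0.26 to 0.169 and were not treated as pairs. Alternatives were RLE factors, library totals, a pseudocount of 5, no filter, edgeR, DESeq2, only the compared cohorts, no series term, a replicate block, overlapping regions counted once, each library left out and, chosen after seeing the data, leaving out the 5 BALB/c libraries with signal at the Gsta1 promoter. Promoters came from RefSeq (GRCm38.p6). Python 3.11.15 with pandas 2.3.3 and matplotlib 3.10.9 drew the figures, and R 4.3.3 ran limma 3.58.1, DESeq2 1.42.0, edgeR 4.0.16 and data.table in version 1.17.8.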

Additional observations from a re-analysis of the deposited data

Results flagged for a closer look

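In 20 of 250 groups of 4 libraries examined at the named regions (8.0%), a single library lay far from the other 3 by Dixon's test, which chance does in about 1 group in 20. C26 pre-cachexia replicate 2 accounted for 5 of them, all as the highest library: Gsta1 promoter (20.1 tags per 10 M), Gsta4 promoter (40.9), Gsta3 upstream (37.0), Gstk1 promoter (182.7) and Gstp1 promoter (170.7). C26 PBS replicate 2 was highest at the Gsta1 (18.8) and Gsta4 (47.2) promoters, and C26 cachexia replicate 2 at the Gsta1 promoter (7.51) and past the end of Gstp1 (19.4). The same library number of the C26 cohort thus stood out at the Gsta1 promoter in all 3 stages, and without these libraries and the 2 NC26 tumor libraries with such signal the counts are those given beside each result. The signal of 2 of the 5 libraries, 20.1 and 18.8 tags, lay within the range of the C57BL/6N libraries, and the cause was not tested.

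The other libraries that stood apart as the highest of their group were C26 pre-cachexia replicate 4 at Ugt1a6a (14.5), 8025 cachexia replicate 3 at the promoters of Sult2b1 (53.7) and Gstm3 (41.5), 8025 cachexia replicate 4 at the upstream Sult2a8 promoter (8.73), NC26 PBS replicate 4 at the promoters of Gsto2 (174.7) and Gstz1 (201.1), and MC38 tumor replicate 4 at the Gsta3 promoter (181.5). The lowest of their group were C26 cachexia replicate 3 at the Gsta3 promoter (102.7), NC26 tumor replicate 2 at the Ugt1a1 promoter (205.1), and MC38 PBS replicate 2 at the Sult2b1 region that differed between strains (2.64) and at the Sult1a1 promoter (59.1).

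Effects of cachexia differed from those of a weight-stable tumor at 12 named regions, tested as a difference of effects in limma with Benjamini-Hochberg adjustment, with the adjusted p and the libraries they rest on given above. For C26 against NC26 the log2 differences were 2.0 at Sult1d1, 1.98 at Sult3a2, 1.54 at Gstm1, -2.48 at Ugt2b36, -2.45 at Sult2a8, -2.19 at Gstp1 and -2.10 at Gsta1. For 8025 against MC38 they were 1.05 at Sult2a1, -2.64 at Sult2a8, -1.91 at Ugt1a7c, -1.81 at Gsta3 and -1.75 at Ugt2b35.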

How the results depend on the processing

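No value that passed its test changed direction under any alternative run; the member median in NC26, -0.09, was 0.01 with library totals only. The counts of members called in C26 cachexia (147), in 8025 cachexia (133) and between the strains (30) stayed within 1.5 times of these values under every alternative, at 107 to 168, 91 to 156 and 20 to 32. The 17 members called in pre-cachexia were 4 with library totals only, 10 with overlapping regions counted once, 27 with only the compared cohorts in the fit and 35 with DESeq2. The 31 members at which the C26 and NC26 effects differed were 18 with library totals only, and the 36 at which the 8025 and MC38 effects differed were 22 with library totals only and 66 with DESeq2. On the recovered read ends, edgeR called 147 members in C26 cachexia and 142 in 8025 cachexia. DESeq2 called 1 member between the C26 and 8025 effects, against 0. Without the 5 BALB/c libraries with signal at the Gsta1 promoter, an alternative chosen after seeing the data, the counts were 7 in pre-cachexia, 17 between cachexia and pre-cachexia (63 with all libraries), 7 in NC26 tumor mice (0 with all libraries) and 19 for the C26 and NC26 difference. Leaving out 1 library at a time gave 108 to 136 calls in C26 cachexia, 1 to 16 in pre-cachexia, 29 to 70 between the stages, 91 to 118 in 8025 cachexia, 0 to 4 in NC26, 0 to 0 in MC38, 18 to 33 for the C26 and NC26 difference, 18 to 39 for the 8025 and MC38 difference, 0 to 1 between the cachexia effects and 20 to 29 between strains. Where a count moved by over 1.5 times, the cause was not tested, apart from the overlapping regions, where fewer regions are counted by construction (558 members form 427 sites). Of 169 named values, 72 passed the threshold. Library totals only ended 10 of these calls, leaving out the 5 libraries 11, the compared cohorts alone and the replicate block 2 each, and RLE factors, no filter, edgeR and DESeq2 1 each. The replicate numbers did not meet the criterion for pairing, a correlation over 0.1 in every pair (0 to 3 libraries of a comparison correlated best with their own number), and a fit with the replicate number as a block gave 144 calls in C26 cachexia, 13 in pre-cachexia, 59 between the stages, 120 in 8025 cachexia, 0 in NC26, 0 in MC38, 26 and 31 for the effect differences, 0 between the cachexia effects and 28 between strains. In simulated data for C26 cachexia against C26 PBS, 4 animals in each group, changes near log2 1 were recovered for 62% of the changed regions. All of these had a signal above the median, so the rate does not describe weaker regions. The group of 3, 8025 PBS, was not simulated. Changes of that size can thus be missed, and regions of a few tags give the least precise changes. NC26 tumor replicate 1, at 3.47 M tags, is the shallowest library. Near-identical gene copies and 400 bp windows that overlap limit the assignment of signal to a single gene.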
